A study of Mus musculus with 6 samples.

Results

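The miRNAs described here are the products of 10 mouse hairpins, Mirlet7b, Mirlet7c-1, Mirlet7c-2, Mirlet7e, Mir99a, Mir99b, Mir100, Mir125a, Mir125b-1 and Mir125b-2, of 1174 hairpins searched. They were chosen by name, as the let-7b, let-7c and let-7e genes together with the miR-99, miR-100 and miR-125 genes that lie beside let-7 genes. Their reads fell on 18 hairpin arms, 8 at the 5′ side (5p) and 10 at the 3′ side (3p), of 974 arms with reads. Wild-type C57BL/6 bone marrow monocytes, called BMMs in the study, were cultured and received either PBS (control, 3 samples) or 5 pg/ml LPS for 4 h (LPS, 3 samples). LPS (lipopolysaccharide) comes from the cell wall of Gram-negative bacteria and is sensed through Tlr4. The study calls this dose super-low and took such doses as a model of low-grade inflammation. Its mouse monocyte cultures of several days received a higher dose. No other allele or agent is given for either group. The paper's methods give the mice of all its experiments as male and up to 10 weeks old at the start. The labels do not say whether samples of a group came from separate mice or cultures, so the spread between them may be technical.

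A miRNA is cut from a hairpin transcript and guides a silencing complex to mRNAs that pair with its seed, bases 2 to 8 from the 5′ end, so miRNAs with the same seed share much of their target range. The let-7 family, first known from worm developmental timing, restrains growth genes such as Hmga2 and Ras, and its maturation is blocked by Lin28. miR-99 and miR-100 are known repressors of Mtor and Igf1r, and miR-125 is known in haematopoietic stem cells and in myeloid cells, where miR-125b targets Tnf and Irf4. In vertebrates a miR-99 or miR-100 gene, a let-7 gene and a miR-125 gene often lie in this order on 1 chromosome, as paralogous clusters.

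On GRCm38 the members lay in 3 such clusters and in a pair of let-7 genes, each on the plus strand. The compact Mir99b cluster on chromosome 17 spans 692 bp, with Mir99b at chr17:17830188-17830257, Mirlet7e at chr17:17830352-17830444 and Mir125a at chr17:17830812-17830879. Mir99b and Mirlet7e lie in introns of the protein-coding gene Spaca6, and Mir125a overlaps an exon of it. The Mir99a cluster on chromosome 16 spans 47408 bp, with Mir99a at chr16:77598936-77599000, Mirlet7c-1 at chr16:77599657-77599750 and Mir125b-2 at chr16:77646273-77646343. These 3 hairpins lie in introns of the non-coding host gene Mir99ahg, and Mir125b-2 also overlaps an exon of C130023A14Rik. The Mir100 cluster on chromosome 9 spans 50578 bp, with Mir100 at chr9:41531425-41531504, Mirlet7a-2 at chr9:41536716-41536811 and Mir125b-1 at chr9:41581926-41582002, in introns of the non-coding genes 3110039I08Rik and Gm49317. Mirlet7a-2 is not among the 10, and its 5p product is that of Mirlet7a-1 too. Mirlet7c-2 at chr15:85706603-85706697 and Mirlet7b at chr15:85707319-85707403 stand together on chromosome 15, within 801 bp, in an exon of the non-coding gene Lncppara.

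The 8 mature 5p sequences are shown because they fall into 3 seed groups and because several differ by a single base, on which the assignment of reads depends. All 18 mature sequences were found in RefSeq for GRCm38.p6, and capitals mark the seed.
let-7b-5p: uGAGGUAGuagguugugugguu
let-7c-5p: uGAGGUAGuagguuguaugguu
let-7e-5p: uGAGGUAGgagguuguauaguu
miR-99a-5p: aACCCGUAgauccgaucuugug
miR-99b-5p: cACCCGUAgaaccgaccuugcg
miR-100-5p: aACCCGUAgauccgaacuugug
miR-125a-5p: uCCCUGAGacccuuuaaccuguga
miR-125b-5p: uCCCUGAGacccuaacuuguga

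Within a seed group the differences lie outside the seed. Counted from the 5′ end, let-7c-5p differs from let-7b-5p by A17G, and miR-99a-5p differs from miR-100-5p by U16A. The non-member let-7a-5p differs from let-7c-5p by A19G and from let-7e-5p by U9G. miR-99a-5p and miR-99b-5p differ by A1C, U11A, U16C and U21C, and miR-125a-5p is 24 nt long against 22 nt for miR-125b-5p, with 7 differences over the first 22 bases. Mirlet7c-1 and Mirlet7c-2 give the same 5p sequence, as do Mir125b-1 and Mir125b-2, so their 5p reads cannot be divided between chromosomes and were counted together.

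The 3p sequences are shown where they separate such copies, since each copy has a 3p arm of its own.
miR-125b-1-3p: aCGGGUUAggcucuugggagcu
miR-125b-2-3p: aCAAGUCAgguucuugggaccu
let-7c-1-3p: cUGUACAAccuucuagcuuucc
let-7c-2-3p: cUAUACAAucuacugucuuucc

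The 6 libraries held 2201520 to 17691405 reads, of which 61.6 to 71.0% matched a hairpin, and levels are given below as reads per 1000000 hairpin reads (RPM). LPS replicate 2 stood apart. It was the deepest library, sequences read a single time made up 18.6% of its distinct sequences but 67.1 to 74.6% of those of the other 5, and it held 55427 RPM of miR-146a-5p against 2822 to 4515 in the others. Fold changes and differences that it moves are also given without it. Markers of myeloid cells (miR-223, miR-142, miR-21a and miR-146a, 4 of 4 with reads) summed to 161440 to 217590 RPM. Most of this sum was miR-21a-5p, at 122793 to 164339 RPM, and its highest value was that of LPS replicate 2, with its miR-146a-5p. miR-142-5p stood at 18107 to 27085 RPM and miR-223-3p at 5607 to 6089 RPM. Summed levels in control and LPS samples were 10.99 to 11.7 and 7.34 to 14.2 RPM for 6 stromal markers, with Mir145a at 0, and 34.4 to 46.9 and 33.8 to 50.3 RPM for the endothelial miR-126a. For the lymphoid miR-150 they were 14.9 to 23.2 and 15.5 to 49.2 RPM, and for 4 epithelial markers 64.5 to 81.7 and 67.2 to 157 RPM, with LPS replicate 2 highest in both. The erythroid, liver, muscle and neuronal lists each summed to at most 3.47 RPM, with Mir1a-1, Mir1a-2 and the 3 Mir124 hairpins at 0. In bulk samples, fewer cells of a type and less RNA per cell cannot be told apart, and the part of other cell types in the results below was not tested.

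The members made up 2.24 to 2.76% of hairpin reads in each sample, and 7 of the 8 5p arms were abundant. Their levels fell into 3 tiers, with let-7c-5p, miR-99b-5p and miR-125a-5p on top, miR-99a-5p, miR-125b-5p, let-7e-5p and let-7b-5p below them, and miR-100-5p far below both. RPM counts reads and not molecules, and different sequences can be ligated and amplified with different yields, so the order is one of reads.

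let-7c-5p, the most abundant member by mean level, stood at 6360, 7905 and 7728 RPM in control replicates 1, 2 and 3 and at 5477, 7784 and 8970 RPM in LPS replicates 1, 2 and 3. The LPS samples lay on both sides of the controls, and the fitted log2 fold change was -0.02 ± 0.18 (SE, 3 against 3 samples), with a 95% interval from -0.46 to 0.42. It was -0.08 without LPS replicate 2. let-7e-5p, from the Mir99b cluster, stood at 1361, 1095 and 933 RPM in the controls and 1255, 1071 and 888 RPM with LPS. In both groups replicate 1 was the highest and replicate 3 the lowest, and the log2 fold change was -0.11 ± 0.23. let-7b-5p stood at 610, 723 and 749 RPM in the controls and 572, 1603 and 792 RPM with LPS. Its LPS replicate 2 was above each other sample, which gave a log2 fold change of 0.49 ± 0.36 that became -0.08 without that sample.

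miR-99b-5p, which opens the chromosome 17 cluster, stood at 8902, 7703 and 4862 RPM in control replicates 1, 2 and 3 and at 8780, 5211 and 4644 RPM in the LPS samples. Its spread within a group was wider than the difference between groups, with a log2 fold change of -0.23 ± 0.35 and an interval from -1.08 to 0.61. The log2 fold change of miR-99b-5p was -0.13 without LPS replicate 2. miR-99a-5p, its paralog on chromosome 16, stood at 1716, 1743 and 1660 RPM in the controls and 1718, 1087 and 1663 RPM with LPS. The 3 controls lay close together, LPS replicates 1 and 3 lay among them, and LPS replicate 2 was lower. Its log2 fold change was -0.22 ± 0.20, and -0.06 without that sample. miR-100-5p, with the same seed, had 19, 14 and 11 reads in the controls and 37, 21 and 11 with LPS, or 1.92 to 11.7 RPM. Its log2 fold change of -0.06 ± 0.69 had the widest interval of the members, from -1.71 to 1.60, and was 0.52 without LPS replicate 2.

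miR-125a-5p, at the far end of the chromosome 17 cluster, stood at 5546, 5466 and 3741 RPM in the controls and 5197, 7209 and 3908 RPM with LPS. LPS replicate 2 was the highest of the 6, and the log2 fold change of 0.11 ± 0.29 turned to -0.16 without it. miR-125b-5p, the sum of the chromosome 16 and chromosome 9 copies, stood at 1652, 1561 and 1271 RPM in the controls and 1529, 885 and 1232 RPM with LPS. Here LPS replicate 2 was the lowest of the 6, with a log2 fold change of -0.33 ± 0.25 for all samples and -0.16 without it.

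**Figure D1:**
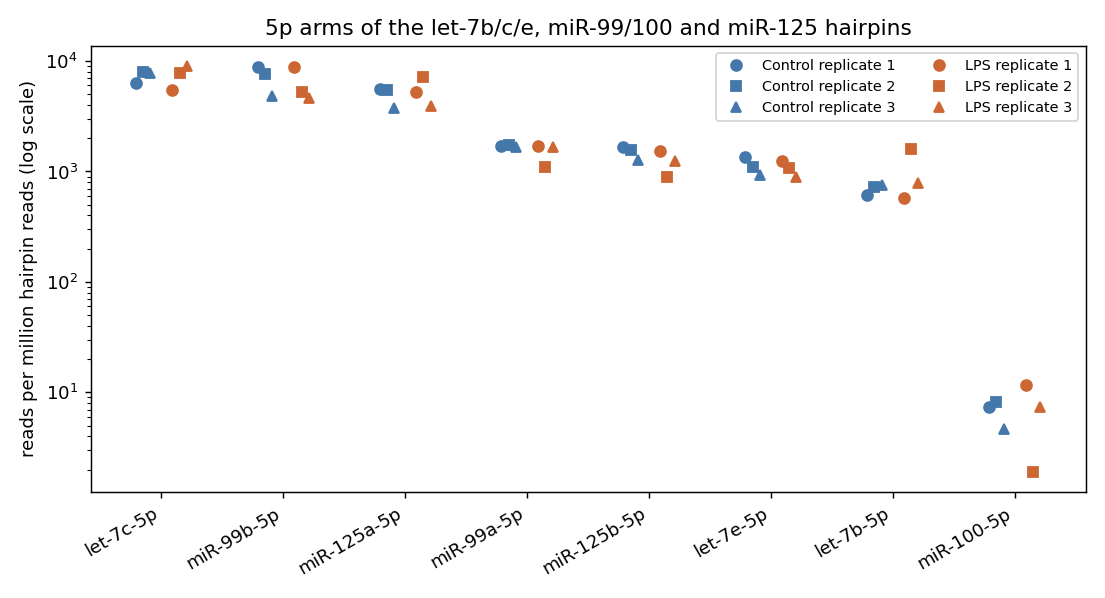
Level of each 5p arm in each sample, in RPM on a log axis, with arms ordered by mean level, 3 control samples in blue and 3 LPS samples in orange, and the marker shape giving the replicate number. Control and LPS points overlap for every one of the 8 arms, and miR-100-5p lies at 1.92 to 11.7 while the other 7 lie at 572 or above.

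Neighbours in the order of levels were not always separate. let-7c-5p exceeded miR-99b-5p in 4 of 6 samples and miR-99b-5p exceeded miR-125a-5p in 5 of 6, so these 3 arms do not hold a fixed order. The step down to miR-99a-5p was present in 6 of 6 samples, where miR-125a-5p was 2.25 to 6.64 times higher. miR-99a-5p exceeded miR-125b-5p in 6 of 6 samples, by 1.04 to 1.35 times, and miR-125b-5p exceeded let-7e-5p in 5 of 6, as let-7e-5p did let-7b-5p. The last step, from let-7b-5p to miR-100-5p, was 49.0 to 834 times.

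The 3p arms, which are mostly discarded when the silencing complex is loaded, were lower. For 5 of the 6 genes or gene pairs examined, the 3p arm held 9.56% or less of the hairpin's reads, from 0.415 to 0.728% for Mir125a, 1.54 to 2.33% for Mir99b, 1.83 to 2.24% for Mirlet7e, 1.87 to 5.42% for Mirlet7b and 6.30 to 9.56% for Mir99a. The exception was the Mir125b pair, where 35.0 to 50.0% of reads were 3p reads. miR-125b-2-3p alone stood at 887, 931 and 994 RPM in the controls and 959, 882 and 977 RPM with LPS. Its mean of 938 RPM was near that of let-7b-5p, 842 RPM, and its log2 fold change of -0.02 ± 0.11 had the narrowest interval of the members, from -0.28 to 0.24. The 3p share of the Mir125b reads was 38.8% ± 4.6 (SD, n = 3) in control and 44.3% ± 5.7 (SD, n = 3) in LPS samples (two-sided exact permutation p = 0.2). LPS replicate 2 was the highest, and without it the difference of 5.51 percentage points was 2.67. That test and the other permutation tests of 3 against 3 below cannot give a p under 0.1.

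The 3p reads of the miR-125b copies could be told apart. Mir125b-1 on chromosome 9 gave 10, 4 and 4 reads of its 3p arm in the controls and 8, 25 and 3 with LPS, against 1468 to 9667 reads for both copies together. Its share of miR-125b 3p reads was 0.170 to 0.439% in single samples (95% Wilson intervals 0.0660 to 0.436% in the lowest and 0.239 to 0.807% in the highest), and 0.265% over the 6 libraries together (95% Wilson interval 0.203 to 0.345%, for counting error only). Mir125b-2 on chromosome 16 gave the rest of these 3p reads. No share of miR-125b-5p can be drawn from this for either chromosome. The 3p part of the reads differed widely between hairpins and is not known for each copy alone.

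The other hairpins of the chromosome 9 cluster also gave few reads of their own. miR-100-5p was 0.177 to 0.675% of the reads of miR-99a-5p and miR-100-5p, or 113 of 31222 reads. miR-100-3p had 1 read in each of 3 samples and 0 in the other 3, where a count of 0 allows up to 0.275 to 2.00 RPM. The middle gene, Mirlet7a-2, has a 3p sequence of its own. Its first 18 bases were in 0 reads of the 6 libraries. Those of let-7a-1-3p, a sequence that Mirlet7c-2 gives too, were in 1868, and both of these hairpins lie on other chromosomes. For each of the 3 hairpins of this cluster, reads that could be told from those of its paralogs were thus few or absent. For Mir125b-1 and Mirlet7a-2 these were 3p reads only, from which no level of their 5p products can be drawn.

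Since miR-100-5p and miR-99a-5p differ by 1 base, misread copies of the abundant one could be counted as the other. The full miR-99a-5p sequence had 24565 reads, and T16A, the change that makes miR-100-5p, had 71. Of the other 65 single-base changes of that sequence, the most frequent had 47 reads and the median one 2. These include changes of the last base, which cannot be told from a shorter read with 1 unmatched 3′ base. The other 5 changes from T to A had at most 11 reads. The count of miR-100-5p was thus above each of the other changes over the 6 libraries together, but by less than 2 times for the commonest of them. Single samples differed in this. Against the commonest other change, miR-100-5p had 10 to 6, 9 to 10 and 8 to 5 reads in control replicates 1, 2 and 3. In LPS replicates 1, 2 and 3 it had 25 to 9, 13 to 15 and 6 to 8. let-7e-5p, which is 1 base from let-7a-5p (169105 reads), had 14769 reads where the most frequent of 63 other changes had 475. let-7b-5p, which is 1 base from let-7c-5p (129151 reads), had 11485 against 812 for the most frequent of 64 other changes, so both of these lay far above the level of other single-base changes.

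The 3p arms of let-7c were divided too. let-7c-1-3p, from the chromosome 16 cluster, stood at 20.3 to 30.9 RPM. let-7c-2-3p, from chromosome 15, has the same sequence as let-7a-1-3p, and the arm they share stood at 76.7 to 90.6 RPM. let-7c-1-3p was 19.2 to 25.5% of both, and no share of let-7c-5p can be drawn from it for either chromosome, because an unknown part of the shared arm is let-7a.

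Among the members with 1 seed, a single one held most reads. let-7c-5p was 74.4 to 84.2% of the let-7b/c/e reads, miR-99b-5p 73.6 to 83.8% of the miR-99a, miR-99b and miR-100 reads and miR-125a-5p 74.6 to 89.1% of the miR-125a and miR-125b reads. Arms that share a seed but are no members, such as let-7f-5p, let-7i-5p and let-7a-5p at 28509, 17560 and 10842 RPM on average and miR-351-5p at 2100.5, are not in these sums. let-7b-5p held 7.33 to 7.96% of its sum in 5 samples and 15.3% in LPS replicate 2. miR-125a-5p held 74.6 to 77.8% of its sum in 5 samples and 89.1% in LPS replicate 2. In these compositions the departing sample was the same. let-7e-5p ranged from 8.34 to 17.2% and miR-99a-5p from 16.1 to 26.3%, and there LPS replicate 2 lay inside the range of the others. let-7b/c/e together were 11.03 to 15.6% of the reads of the 9 let-7 and miR-98 5p arms.

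**Figure D2:**
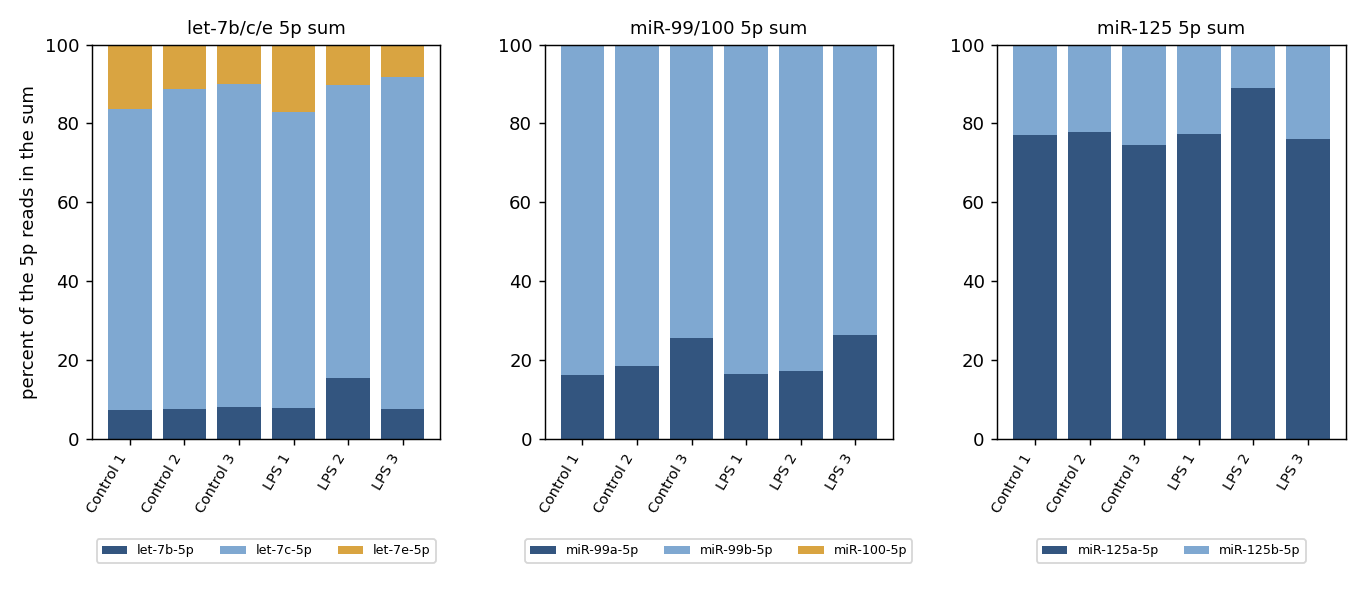
Share of each member in the summed 5p reads of let-7b/c/e, of miR-99a/99b/100 and of miR-125a/125b, in percent, for each of the 6 samples, as stacked bars that sum to 100. let-7c-5p, miR-99b-5p and miR-125a-5p take 73.6 to 89.1% of their sums, miR-100-5p (at most 0.116%) is too small to see, and LPS replicate 2 differs in the let-7b-5p and miR-125a-5p shares.

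The comparison of LPS with control asked whether super-low-dose LPS shifted these miRNAs, and no member arm passed it. Of the 18 arms, 16 had enough reads to be tested with edgeR over all 319 arms that passed the count filter, and miR-100-3p and miR-125b-1-3p had not. The number of member arms with an adjusted p (Benjamini-Hochberg) under 0.05 was 0 higher and 0 lower, where the share among all arms tested was 0% in each direction. Each member had an adjusted p of 0.994. Without adjustment 1 member had p under 0.05 in edgeR and 0 in DESeq2, where 2.51% of all arms tested did in edgeR, or 8, and 4 in DESeq2. By sign, 4 members were higher and 12 lower, and among all arms 162 and 157. The members' log2 fold changes ran from -0.33 to 0.63 with a median of -0.05, beside a median of 0.00 over all arms.

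let-7b-3p, the passenger arm of let-7b, was the member with the smallest p. It stood at 19.9, 22.2 and 24.1 RPM in the controls and 32.8, 30.6 and 28.7 RPM with LPS, from 38 to 57 and from 43 to 334 reads. It was the only member arm of the 16 whose groups did not overlap. Among all arms tested 1.57% did not overlap with LPS higher, and 1.57% with LPS lower. Its log2 fold change was 0.46 ± 0.18 (edgeR, unadjusted p = 0.0432, adjusted p = 0.994), and 0.45 with an unadjusted p of 0.0785 without LPS replicate 2. The 5p arm of the same hairpin did not share this pattern, since LPS replicate 1 held the lowest let-7b-5p of the 6 samples. The arm with the largest fold change, miR-125a-3p, stood at 23.5, 22.8 and 24.1 RPM in the controls and 31.9, 52.9 and 24.02 RPM with LPS, with LPS replicate 3 inside the control range. Its log2 fold change of 0.63 ± 0.32 (unadjusted p = 0.0916 and adjusted p = 0.994, edgeR) was 0.24 without LPS replicate 2.

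The other 3p arms lay close to 0. miR-99a-3p stood at 136, 117 and 131 RPM in the controls and 154, 115 and 115 RPM with LPS, and miR-99b-3p at 140, 163 and 101 against 137, 120 and 111 RPM. The groups overlapped for both, and the log2 fold changes were -0.02 ± 0.20 and -0.17 ± 0.25. let-7e-3p, at 18.2 to 25.4 RPM, let-7c-1-3p and the let-7c-2-3p arm had log2 fold changes from -0.15 to -0.05.

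**Figure D3:**
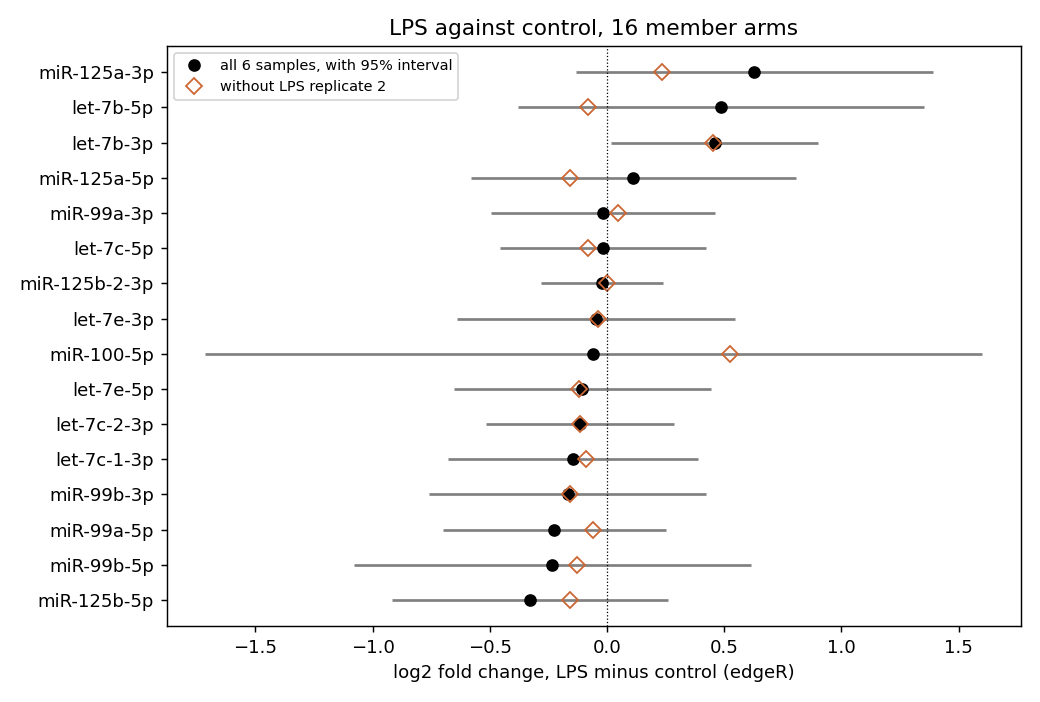
Log2 fold change of LPS against control for the 16 member arms tested with edgeR, as points with 95% intervals for all 6 samples, and as open diamonds without LPS replicate 2. The interval of let-7b-3p alone lies above 0 (0.02 to 0.90, before adjustment), and without LPS replicate 2 the estimates change sign for let-7b-5p, miR-125a-5p, miR-100-5p (-0.06 to 0.52), miR-99a-3p and miR-125b-2-3p.

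Summed over the members with 1 seed, none of the 3 sums differed between groups by more than its spread. The let-7b/c/e sum was 9155 ± 730 RPM in control and 9471 ± 1879 RPM in LPS samples (SD, n = 3 each, two-sided exact permutation p = 1.0). The miR-99/100 sum was 8869 ± 2111 and 7708 ± 2427 RPM (exact p = 0.5), and the miR-125 sum was 6412 ± 1216 and 6653 ± 1478 RPM (exact p = 0.9). For miR-99/100 the 3 controls were 10625, 9454 and 6527 RPM and the LPS samples 10509, 6300 and 6314 RPM, so a control sample lay close to each end of the LPS range. The log2 differences of the 3 sums were 0.03, -0.22 and 0.05, and without LPS replicate 2 they were -0.05, -0.09 and -0.11. The miR-99/100 difference was -0.46 without LPS replicate 1 and -0.42 without control replicate 3, and this sum was lower with LPS in 3 of 3 same-numbered pairs, with log2 differences of -0.02, -0.59 and -0.05.

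The paralogous clusters were then compared by the sums of their members. The Mir99b cluster (miR-99b-5p, let-7e-5p and miR-125a-5p) summed to 15809, 14264 and 9536 RPM in control replicates 1, 2 and 3 and to 15232, 13492 and 9440 RPM in the same LPS replicates. The Mir99a and Mir100 clusters together (miR-99a-5p, miR-100-5p, let-7c-5p and miR-125b-5p) summed to 9735, 11217 and 10663 RPM in the controls and to 8735, 9757 and 11872 RPM with LPS. The latter sum includes the let-7c-5p reads of chromosome 15, which cannot be set apart, and leaves out let-7a-5p, which Mirlet7a-2 shares with Mirlet7a-1. Neither sum differed between groups beyond its spread, with means of 13203 ± 3268 and 12721 ± 2972 RPM for the Mir99b cluster (SD, n = 3 each, exact permutation p = 0.7) and of 10538 ± 749 and 10121 ± 1600 RPM for the others (exact permutation p = 0.7). Between same-numbered samples the Mir99b cluster was lower with LPS in 3 of 3 pairs, with log2 differences of -0.05, -0.08 and -0.01, where the smallest exact p that 3 pairs allow is 0.25. The other clusters were lower in 2 of 3 pairs. Without LPS replicate 2 the log2 differences between groups were -0.11 for the Mir99b cluster and -0.05 for the others.

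Within a sample, the ratio of the Mir99b cluster to the other clusters was 1.62, 1.27 and 0.894 in control replicates 1, 2 and 3 and 1.74, 1.38 and 0.795 in LPS replicates 1, 2 and 3. It varied more with the replicate number than with LPS. The log2 ratio differed by 0.103 to 0.170 between the control and LPS samples of the same number, and by 0.335 to 1.13 between samples of the same group. The mean log2 ratio was 0.30 in control and 0.31 in LPS samples, a difference of 0.02 (two-sided exact permutation p = 1.0) that was -0.06 without LPS replicate 2. What the replicate numbers stand for is not given in the sources used here, and no cause of the difference between them was tested.

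**Figure D4:**
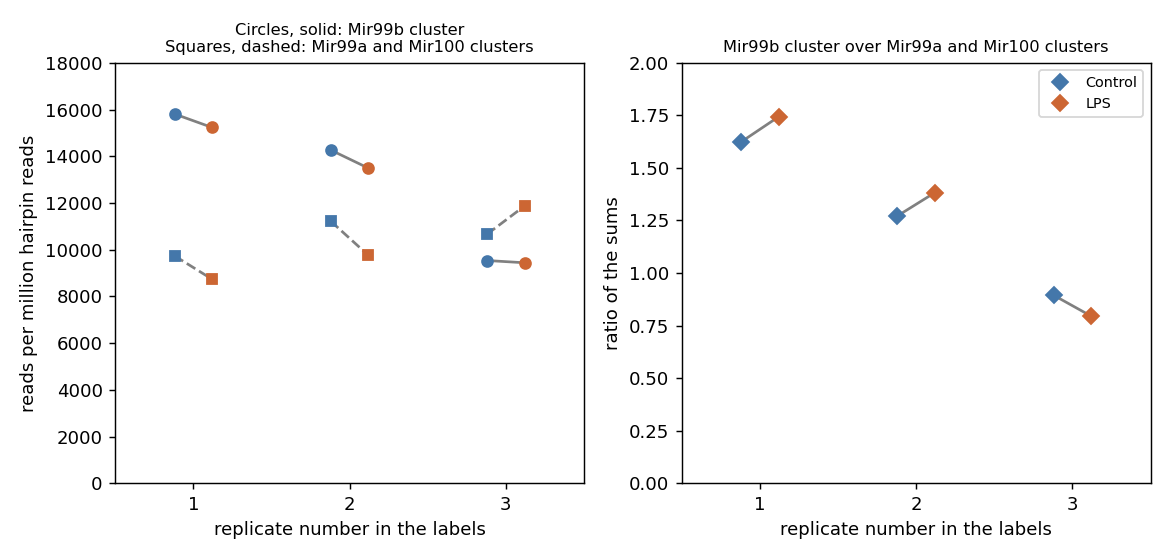
Left, summed 5p level of the Mir99b cluster (circles) and of the Mir99a and Mir100 clusters (squares) in RPM; right, their ratio, in control (blue) and LPS (orange) samples by replicate number, with lines joining samples of 1 number. The ratio lies at 1.62 and 1.74 for replicate 1 and at 0.894 and 0.795 for replicate 3, and the 2 groups have overlapping ranges.

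Within same-numbered samples, LPS over control for the 7 abundant 5p arms ran from 0.861 to 1.00 for replicate 1 and from 0.951 to 1.16 for replicate 3. For replicate 2 it ran from 0.567 for miR-125b-5p to 2.22 for let-7b-5p. The wide pair is thus the one that holds LPS replicate 2. In that pair miR-99a-5p, miR-99b-5p and miR-125b-5p were at 0.623, 0.677 and 0.567 of the control, miR-125a-5p at 1.32, and let-7c-5p and let-7e-5p at 0.985 and 0.978. The balance inside the Mir99b cluster moved with it, as miR-125a-5p was 53.4% and miR-99b-5p 38.6% of the cluster in LPS replicate 2, against 34.1 to 41.4% and 49.2 to 57.6% in the other 5 samples. let-7e-5p held 7.68 to 9.79% of the cluster in each of the 6.

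Reads of a miRNA do not all begin and end at the same base, and the start decides the seed. miR-125b-5p had a second start 1 base inside the RefSeq one in 16.3 to 17.9% of its reads in each of the 6 samples. The other abundant 5p arms had at most 0.443% of reads there. The shift moves the seed by 1 base, from CCCTGAG to CCTGAGA, as the most frequent read of each start shows (DNA letters, seed in capitals).
miR-125b-5p, RefSeq start: tCCCTGAGaccctaacttgtga
miR-125b-5p, start 1 base inside: cCCTGAGAccctaacttgtga

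miR-125a-5p has the same first bases as miR-125b-5p, and 0.179 to 0.367% of its reads began 1 base inside. The share for miR-125b-5p was 17.3% ± 0.9 (SD, n = 3) in control and 17.4% ± 0.7 (SD, n = 3) in LPS samples. Its partner miR-125b-2-3p had several starts as well, with 63.7 to 72.8% of reads at the RefSeq start, 15.7 to 19.9% starting 2 bases outside it and 8.82 to 15.2% starting 3 bases outside it. Both arms of miR-125b were thus ragged at the 5′ end, in control and LPS samples alike.

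The 3′ ends varied more and differed between members. Reads identical to the RefSeq sequence made up 78.0 to 80.7% of let-7c-5p and 76.8 to 80.4% of miR-99a-5p, 58.4 to 61.7% of let-7e-5p, 52.2 to 57.7% of miR-99b-5p, 51.5 to 58.5% of miR-125b-5p and 37.7 to 48.2% of let-7b-5p. Some reads also ended in bases that do not match the hairpin, whose origin was not tested. Reads with 1 or more unmatched 3′ bases were 6.65 to 7.65% of let-7c-5p and 2.41 to 3.97% of miR-99a-5p, but 26.2 to 34.6% of let-7b-5p, 18.1 to 22.2% of let-7e-5p and 18.3 to 21.7% of miR-99b-5p. Over all hairpin reads the share was 10.46 to 11.9%.

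Which base was unmatched differed too. For let-7e-5p a single T was the commonest, at 11.2 to 13.1% of reads. For miR-99b-5p a single A made 10.1 to 11.7% and a single T 5.46 to 7.71%, and for miR-125b-5p a single A made 12.5 to 16.6%. The following reads are shown because each ends in such a base, in capitals.
let-7e-5p with 1 T: tgaggtaggaggttgtatagttT
let-7b-5p with 1 A: tgaggtagtaggttgtgtggttA
miR-99b-5p with 1 A: cacccgtagaaccgaccttgcgA

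Some 3p arms went further. For miR-99b-3p, 68.6 to 77.4% of reads had an unmatched 3′ base, 38.0 to 46.8% a single T, and its RefSeq sequence was 5.29 to 10.02% of reads. For miR-125b-2-3p, 31.3 to 38.4% of reads had an unmatched base, 23.6 to 31.9% a single T. The paralog miR-99a-3p had 8.41 to 11.6% of reads with an unmatched base, and 62.9 to 78.4% of its reads instead ran on along the hairpin past the RefSeq end. The reads below show this contrast between the paralogs, with capitals for the unmatched T or for matched bases beyond the RefSeq end.
miR-99b-3p, most abundant read: caagctcgtgtctgtgggtcT
miR-125b-2-3p with 1 T: acaagtcaggttcttgggacT
miR-99a-3p, most abundant read: caagctcgtttctatgggtctGT

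Some read ends set LPS replicate 2 apart, among them a final G. A single unmatched G followed 10.97, 9.28 and 10.05% of miR-125a-5p reads in the controls and 7.35, 0.114 and 10.6% in LPS replicates 1, 2 and 3. For miR-125b-5p the shares were 9.47, 6.39 and 6.12% in the controls and 6.30, 0.103 and 6.61% with LPS. LPS replicate 2 was thus far below each other sample in both arms, and the reads concerned end in the same letters.
miR-125a-5p with 1 G: tccctgagaccctttaacctgtgG
miR-99a-5p, 1 base longer: aacccgtagatccgatcttgtgG

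Reads ending in TGTGG were 2.61 to 3.49% of miR-99a-5p in 5 samples and 0.0421% in LPS replicate 2, although there the final G matches the hairpin. For let-7b-5p, where a read cut short by a pair of bases ends in these letters, the shares were 3.22 to 3.79% and 2.51%. Over all hairpin reads such ends made 0.0805 to 0.125% in 5 samples and 0.00900% in LPS replicate 2. Other ends stood apart there by smaller factors. miR-99a-3p reads past the RefSeq end were 62.9% in LPS replicate 2 and 71.1 to 78.4% in the other 5 samples, and let-7b-5p reads with an unmatched base 26.2% and 31.2 to 34.6%. TGTGG ends therefore differed in this library for miR-125a-5p, miR-125b-5p and miR-99a-5p, 3 members whose levels also stood apart there, and the part of one in the other was not tested.

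**Figure D5:**
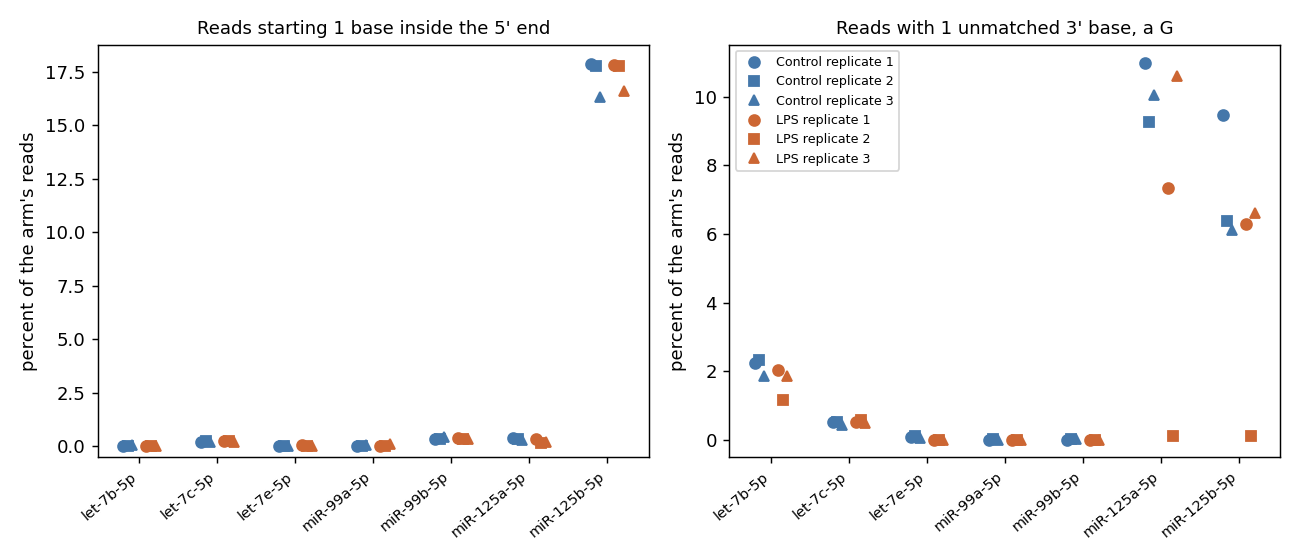
Left, percent of the reads of each 5p arm that start 1 base inside the RefSeq 5′ end; right, percent that carry a single unmatched 3′ G, for 3 control (blue) and 3 LPS (orange) samples with marker shapes for replicate numbers. miR-125b-5p lies at 16.3 to 17.9% on the left in every sample, and LPS replicate 2 lies at 0.114% and 0.103% on the right where the other samples lie at 6.12 to 10.97%.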

How the data were processed

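Small RNA libraries (TruSeq small RNA kit) of 3 control and 3 LPS samples were sequenced on a HiSeq instrument by the authors, who trimmed adaptors with perl scripts and Btrim64. The deposited files hold, for each distinct read sequence after trimming, its raw count, with no miRNA named, and the submitters' processing notes name the build mm9, which was not used here. Library totals were 2201520 to 17691405 reads, so arms with few reads are measured least precisely in the shallow libraries. The labels give DMEM as the medium where the methods give RPMI, and the 4 h comes from the methods.

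Reads of 18 nt or more were matched to 1174 GENCODE M21 hairpins (GRCm38), with up to 3 unmatched 3′ bases and the fewest unmatched bases preferred. Arms sharing 50% of reads were merged, and a read of several arms (0.212 to 0.254% of hairpin reads) went to the arm with most reads of its own. The design had assumed counts per miRNA, so this mapping was set up on the deposited read counts. Of 974 arms, 319 passed filterByExpr and were tested with edgeR 4.0.16 (TMM, quasi-likelihood, Benjamini-Hochberg over all arms, threshold 0.05, R 4.3.3). Sums and shares had two-sided exact permutation tests (log2 with a pseudocount of 1 RPM for sums, scipy 1.17.1), and pooled shares 95% Wilson intervals. The floor for 0 reads is 3 counts. The mapping and the fit were tested on simulated data. Mature sequences are those of RefSeq (GRCm38.p6).

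All arms of the members are named, with non-members that share a seed and those most alike in pattern. The members, lists and tests were chosen with earlier results of these data known. Same-numbered control and LPS samples deviated together from their group means (r = 0.595, 0.259 and 0.277 across arms, which are not independent). For different numbers r was -0.387 to 0.154. The numbers, from the labels' titles, were therefore taken as pairs in same-numbered comparisons, the replicate block and the sign flips. The main edgeR fit and the exact permutation tests between groups did not use the pairs. Alternatives were library totals, DESeq2 1.42.0, no count filter, the replicate block, each sample left out, exact matches, reads of a single arm, the dominant sequence of each arm, scaling to all reads of 18 nt or more and a pseudocount of 10. The block over sign flips for the sums was added after seeing the data.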

Additional observations from a re-analysis of the deposited data

How the results depend on the processing

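Under every alternative run, 0 member arms had an adjusted p under 0.05 (edgeR or DESeq2). Of all arms, 0 did, except that 21 did without the count filter, each of them highest in LPS replicate 2 and none a member. Directions close to 0 were not stable. The log2 difference of the let-7b/c/e sum turned to -0.041 and that of the miR-125 sum to -0.025 scaled to all reads of 18 nt or more, and that of the Mir99b cluster to 0.0013 with exact matches and 0.032 with dominant sequences. let-7c-5p turned to 0.016 with library totals and 0.00050 with DESeq2, miR-100-5p to 0.018 with DESeq2 and 0.13 with exact matches, and miR-99a-3p to 0.0037 with library totals, 0.00018 with DESeq2 and 0.00013 without the filter. miR-125b-2-3p turned to 0.0038 with library totals, and with exact matches let-7c-2-3p turned to 0.0089, let-7e-3p to 0.028 and miR-99b-3p to 0.060.

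With 1 sample left out at a time, log2 differences ran from -0.064 to 0.21 for the let-7b/c/e sum, -0.46 to -0.071 for the miR-99/100 sum, -0.12 to 0.22 for the miR-125 sum, -0.27 to 0.15 for the Mir99b cluster, -0.19 to 0.033 for the Mir99a and Mir100 clusters and -0.23 to 0.34 for their log2 ratio. For single arms they ran from -0.080 to 0.75 for let-7b-5p, -0.13 to 0.14 for let-7c-5p, -0.26 to 0.11 for let-7e-5p, -0.60 to 0.012 for miR-99b-5p, -0.996 to 0.52 for miR-100-5p, -0.16 to 0.34 for miR-125a-5p and -0.57 to -0.16 for miR-125b-5p. For 3p arms they ran from -0.24 to 0.040 for let-7c-1-3p, -0.21 to 0.091 for let-7e-3p, -0.21 to 0.087 for miR-99a-3p, -0.36 to 0.0054 for miR-99b-3p and -0.065 to 0.0018 for miR-125b-2-3p. let-7b-3p stayed between 0.38 and 0.54. With the replicate block, 0 of 16 member arms passed (let-7b-3p 0.46, edgeR adjusted p = 0.854), and the block changed no member's call. Sign flips within the 3 pairs, which cannot give a p under 0.25, gave exact p = 1.0, 0.25 and 0.75 for the let-7b/c/e, miR-99/100 and miR-125 sums, 0.25 and 0.5 for the Mir99b and the other clusters, and 1.0 for the ratio. Depth limits the scarce arms most, and 3 samples a group limit every comparison. The causes of these changes were not tested.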

Other observations

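Besides the members, 7 arms share a member's seed, and each was tested. let-7f-5p stood at 28509 RPM on average, let-7i-5p at 17560 and let-7a-5p at 10842, all above let-7c-5p. Their log2 fold changes were -0.11 ± 0.15, -0.06 ± 0.13 and -0.09 ± 0.17 (SE, edgeR). miR-351-5p, which carries the miR-125 seed, stood at 1487 to 2595 RPM, above miR-125b-5p on average. Of the 7 relatives, 0 passed the adjusted test in edgeR and 0 had an unadjusted p under 0.05, and their log2 fold changes ran from -0.17 to 0.03.

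For the 130 arms that averaged 100 RPM or more, likeness to each member sum was measured by the root mean square difference of log2 levels over the 6 samples, after centring. let-7g-5p was most like the let-7b/c/e sum, at 0.06, before miR-350-5p at 0.09 and miR-511-3p at 0.10. miR-486-5p (with Mir3107, 0.16), miR-21a-5p (0.17) and miR-192-5p (0.18) were most like the miR-99/100 sum, and miR-501-3p (0.17), miR-674-5p (0.19) and miR-21a-5p (0.22) most like the miR-125 sum. These values describe 6 libraries and carry no test.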
